A study of Mus musculus with 36 samples.

Results

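The 9 genes described here encode the ligands, receptors and SMADs of the TGF-beta pathway: Tgfb1, Tgfb2 and Tgfb3, Tgfbr1, Tgfbr2 and Tgfbr3, and Smad2, Smad3 and Smad7. They were taken by their symbols from the 21761 genes of each deposited count file, and all 9 passed the filter on low counts that kept 15207 genes. TGF-beta ligands are secreted in a latent form and must be released before they act. The released dimer is bound by the kinase receptor TGFBR2, helped by the coreceptor TGFBR3, and TGFBR2 then activates TGFBR1, which phosphorylates SMAD2 and SMAD3. Those SMADs enter the nucleus with SMAD4 and switch on target genes, among them Smad7, whose product blocks the activated receptor. In the nervous system the ligands are known as survival factors for motor neurons and as signals to astrocytes and microglia.

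The cells were mouse motor neurons differentiated from embryonic stem cells (strain Hlxb9-GFP1Tmj). In all groups the HB9 (Mnx1) promoter drove eGFP, or eGFP with the surface protein CD2, and CD2-bearing cells were kept on a magnetic column before plating, so any HB9-active cell could be collected. The cultures then received medium conditioned by astrocytes of newborn pups, which were non-transgenic (NTg), carried the G93A mutant of SOD1 (mSOD1), or over-expressed wild-type SOD1 (wtSOD1). The transgenes were thus in the astrocytes that gave the medium, not in the sequenced cells, and the labels do not say which libraries had medium from spinal cord astrocytes and which from cortex. Each medium was supplemented with glucose, antibiotics, GDNF, BDNF and CNTF. RNA was taken after 1 day and after 3 days, which gave 6 groups of 6 libraries, and the replicate number of a library is the experiment number of its label. A time zero control that the series names was not analysed here. The labels do not say whether the experiments used separate cell preparations, so p-values measure the spread between these libraries.

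Libraries held 4.39 to 88.9 M reads in genes (median 13.3 M). A pair of day 1 libraries agreed least with the others of their groups over the genes tested: NTg replicate 6, the smallest, had a mean correlation of 0.9715 with them, and wtSOD1 replicate 4, the largest, of 0.9804, against 0.9837 to 0.9919 for the other 34. NTg replicate 6 also had the highest summed level of 6 oligodendrocyte lineage markers (191 CPM, counts per 1 M reads in genes) and of 6 microglial markers (39.8 CPM). Motor neuron markers were present in every library, and their summed level (8 genes, Mnx1, Isl1 and Chat among them) was 1440 to 1850 CPM on day 1 and 534 to 1080 CPM on day 3. Prph weighed most in that sum, with medians of 722 CPM on day 1 and 459 CPM on day 3. Mnx1 went from a median of 108 to 35.2 CPM, Isl1 from 154 to 59.4 CPM and Chat from 220 to 86.5 CPM. All 8 were lower on day 3 in each medium. On day 3 markers of some other cells were higher. Astrocyte markers (6 genes) summed to 111 to 175 CPM on day 1 and 305 to 507 CPM on day 3. Within that list Gfap, the intermediate filament gene of astrocytes, was at 0 in 12 of 18 libraries of day 1. Its day 3 median was 0.557 CPM. Slc1a2 was lower on day 3 (median 36.4 CPM, against 65.0 CPM on day 1), and S100b hardly differed (0.517 against 0.496 CPM). Mesenchymal markers (8 genes) summed to 57.7 to 121 CPM and then 144 to 256 CPM, and genes of dividing cells (6 genes) to 408 to 606 CPM and then 696 to 1280 CPM. These shifts accompany every difference between days given here, and their part in it was not tested. In such bulk samples fewer cells of a type and less RNA per cell cannot be told apart.

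To set the genes beside each other, CPM values on TMM-scaled library sizes were divided by the merged exon length of each gene in kb. On this scale per length, Tgfbr1 (gene 21812), the type I receptor kinase, had the highest level of the 9 on day 1 and on day 3, with 38.9 ± 2.34 and 26.8 ± 1.17 CPM per kb (mean ± SD, n = 18 libraries per day). Tgfb2 (21808) followed on day 1 with 12.6 ± 0.91 and Smad2 (17126) with 9.78 ± 0.527 CPM per kb. Smad3 (17127) stood next with 6.35 ± 0.87 on day 1, and on day 3 it had 13.9 ± 0.694 CPM per kb beside 13.5 ± 0.943 for Tgfb2, a difference within their spread. Smad7 (17131) had 2.13 ± 0.383 and 2.19 ± 0.33 CPM per kb on the 2 days, and Tgfb3 (21809) 1.32 ± 0.36 and 3.34 ± 0.508. The levels of Tgfbr3 (21814), 0.86 ± 0.107 CPM per kb, and Tgfbr2 (21813), 0.676 ± 0.171, were close on day 1, and on day 3 Tgfbr3 had 1.33 ± 0.254 and Tgfbr2 2.97 ± 0.409. Tgfb1 (21803) was lowest on both days, with 0.229 ± 0.111 and 0.309 ± 0.0625 CPM per kb, from only 4 to 66 reads per library. Per length of its longest transcript Tgfb1 had 0.449 and 0.606 CPM per kb and was still lowest.

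**Figure D1:**
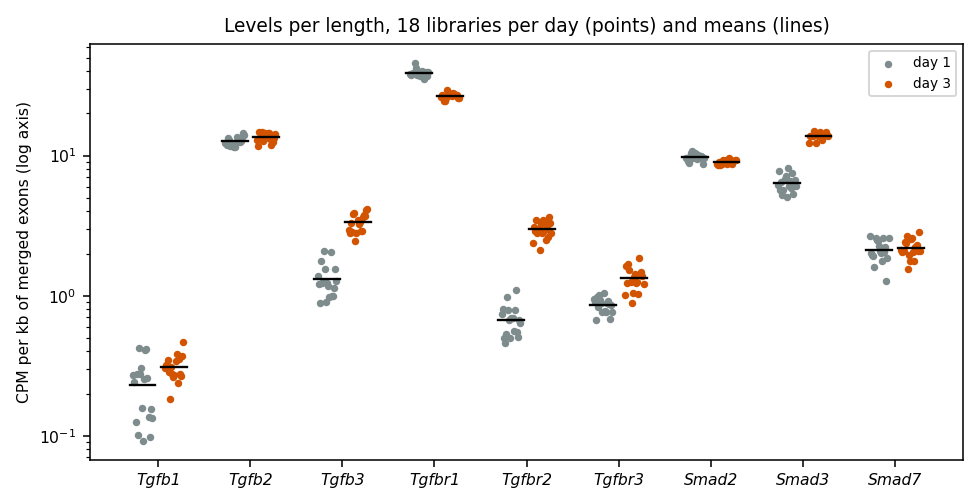
Level of each of the 9 genes in CPM per kb of merged exons (log axis), 18 libraries of day 1 and 18 of day 3; points are libraries and lines are means. Tgfbr1 is highest on both days and Tgfb1 lowest, and the points of Tgfb3, Tgfbr2 and Smad3 on day 3 lie above those of day 1.

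Among the ligand transcripts, again per length, Tgfb2 made up 89.1 ± 2.68% on day 1 and 78.8 ± 2.36% on day 3 (n = 18). Tgfb3 made up 9.25 ± 2.33% and then 19.4 ± 2.34%, and Tgfb1 1.61 ± 0.762% and 1.81 ± 0.359%. The Tgfb1 share depends on the length taken, and by the longest transcript it was 2.79 ± 1.3% and 3.15 ± 0.62%, with Tgfb2 at 89.0% and 79.5%. The balance of the receptor kinases moved further. The ratio of Tgfbr1 to Tgfbr2 in CPM per kb was 60.8 ± 14.2 on day 1, with a range of 32.4 to 84.6 over libraries. On day 3 it was 9.19 ± 1.61, with a range of 7.13 to 13.8. This ratio too depends on the length taken, and by the longest transcript its means were 68.2 and 10.3. Within the sum of Smad2, Smad3 and Smad7 per length, Smad2 held 53.6 ± 3.04% and Smad3 34.7 ± 3.47% on day 1, and on day 3 Smad2 held 35.9 ± 1.66% and Smad3 55.3 ± 1.17%.

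How did the pathway differ between 1 and 3 days in medium? Between the days Tgfbr2, Tgfb3, Smad3 and Tgfbr3 rose and Tgfbr1 fell in each of the 3 media, while Smad7 passed the test in none. By edgeR's quasi-likelihood test with Benjamini-Hochberg adjustment over all genes, 5 of 9 rose and 2 fell in NTg medium, 5 rose and 2 fell in mSOD1 medium, and 5 rose and 1 fell in wtSOD1 medium. A large part of the transcriptome moved with time. Of all genes tested, 61.6% passed in NTg (30.8% rose and 30.8% fell), 56.5% in mSOD1 (28.4% and 28.0%) and 61.8% in wtSOD1 medium (31.1% and 30.7%), so the number of members that passed is not particular to them. What set single members apart was the size of their difference.

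Tgfbr2, which binds the ligand, showed the greatest difference. In NTg medium its lowest, median and highest libraries had 3.78, 5.20 and 8.02 CPM on day 1 and 19.5, 24.0 and 28.4 CPM on day 3. In mSOD1 medium they had 4.06, 5.57 and 6.47 CPM and then 17.4, 25.3 and 28.4 CPM, and in wtSOD1 medium the means were 5.79 ± 1.72 and then 24.6 ± 3.53 CPM (SD, n = 6). Every day 3 library was above every day 1 library. The log2 difference was 2.18 ± 0.16 in NTg (estimate ± SE, n = 6 per group, adjusted p = 1.58e-14 by edgeR's test), 2.22 ± 0.16 in mSOD1 (1.77e-14) and 2.13 ± 0.15 in wtSOD1 medium (9.17e-15). Only 1.54%, 1.28% and 1.62% of the genes tested had a greater absolute log2 difference in these media.

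Tgfb3, a ligand, had 2.98, 4.22 and 6.00 CPM in its lowest, median and highest NTg libraries of day 1 and 9.46, 10.6 and 13.2 CPM on day 3. Over all 3 media its day 1 libraries reached 7.07 CPM at most and its day 3 libraries had at least 8.33 CPM, so the days did not overlap. It rose by 1.35 ± 0.17 in NTg (adjusted p = 9.45e-09), 1.23 ± 0.17 in mSOD1 (1.13e-07) and 1.48 ± 0.16 in wtSOD1 medium (3.79e-10, edgeR). Other gene models lie on the strand opposite to Tgfb3 and to Tgfb2, and their reads cannot be told apart from the gene's own if the counting used no strand, which the sources used here do not state. One model overlaps Tgfbr3 on its own strand, where strand cannot separate the reads.

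Smad3, which carries the signal to the nucleus, had 28.9, 32.8 and 42.7 CPM in the lowest, median and highest NTg libraries of day 1 and 68.7, 77.0 and 82.4 CPM on day 3. Here too the days did not overlap in any medium, with 28.0 to 45.1 CPM over all libraries of day 1 and 68.7 to 82.4 CPM on day 3. The rise was 1.16 ± 0.08 in NTg (adjusted p = 3.90e-15), 1.08 ± 0.08 in mSOD1 (4.60e-14) and 1.16 ± 0.08 in wtSOD1 medium (2.67e-15, edgeR). Its partner Smad2 moved the other way and little. It went from 84.4 ± 4.74 to 77.2 ± 2.49 CPM in NTg medium (mean ± SD, n = 6, log2 difference -0.12 ± 0.04, adjusted p = 0.00581, edgeR) and from 89.1 ± 4.20 to 79.9 ± 2.73 CPM in mSOD1 medium (-0.16 ± 0.04, 0.000833). In wtSOD1 medium the difference was -0.07 ± 0.04 and did not pass (adjusted p = 0.106, edgeR), though it did without wtSOD1 replicate 5 of day 1 (-0.10 ± 0.04, 0.0273). The groups of Smad2 overlapped between days in all 3 media.

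Tgfbr1 was the member with the clearest fall. Its lowest, median and highest NTg libraries had 245, 252 and 301 CPM on day 1 and 161, 170 and 178 CPM on day 3. The groups did not overlap in any medium. It fell by 0.61 ± 0.04 in NTg (adjusted p = 1.41e-15), 0.50 ± 0.04 in mSOD1 (6.04e-13) and 0.50 ± 0.04 in wtSOD1 medium (3.66e-13, edgeR). The coreceptor Tgfbr3 went from 5.80 ± 0.832 to 9.08 ± 1.75 CPM in NTg medium, from 5.65 ± 0.749 to 7.87 ± 1.33 CPM in mSOD1 medium and from 5.44 ± 0.574 to 9.15 ± 1.82 CPM in wtSOD1 medium. These were rises of 0.65 ± 0.14 (adjusted p = 9.50e-05), 0.50 ± 0.14 (0.00288) and 0.77 ± 0.14 (5.16e-06, edgeR). The days overlapped in NTg and mSOD1 medium and not in wtSOD1 medium. Counting all members, 4 of 9 did not overlap between days in NTg and in mSOD1 medium and 5 of 9 in wtSOD1 medium, where 38.4%, 32.0% and 38.3% of all genes tested did not.

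The other ligands changed less. Tgfb2, the most abundant of them, went from 71.9 ± 3.79 to 78.8 ± 6.74 CPM in NTg medium (log2 difference 0.13 ± 0.05, adjusted p = 0.0363, edgeR) and from 69.9 ± 4.36 to 80.7 ± 4.55 CPM in mSOD1 medium (0.21 ± 0.05, 0.00136). In wtSOD1 medium it had 77.7 ± 4.72 and 75.8 ± 4.51 CPM (-0.04 ± 0.05, 0.588). The NTg call was lost when any of 8 libraries was left out (replicates 1, 2, 5 and 6 of day 1 and 3, 4, 5 and 6 of day 3, adjusted p = 0.0511 to 0.107). Tgfb1 passed only in wtSOD1 medium, from 1.00 ± 0.596 to 1.65 ± 0.425 CPM (0.76 ± 0.31, adjusted p = 0.0304, edgeR). Without wtSOD1 replicate 4 of day 1, which had 0.495 CPM, that difference was 0.51 ± 0.30 (adjusted p = 0.136), and leaving out any of 6 other libraries of those groups also ended the call (replicates 3, 5 and 6 of day 1 and 2, 5 and 6 of day 3). Smad7, the inhibitory SMAD, had 9.64 ± 1.73 CPM on day 1 and 9.92 ± 1.49 CPM on day 3 (n = 18), and its differences of 0.13 ± 0.15, -0.07 ± 0.15 and 0.11 ± 0.14 in NTg, mSOD1 and wtSOD1 medium did not pass (adjusted p = 0.460, 0.708 and 0.513, edgeR). Without the pair of libraries that agreed least with their groups, 6, 7 and 5 members passed between days in NTg, mSOD1 and wtSOD1 medium.

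**Figure D2:**
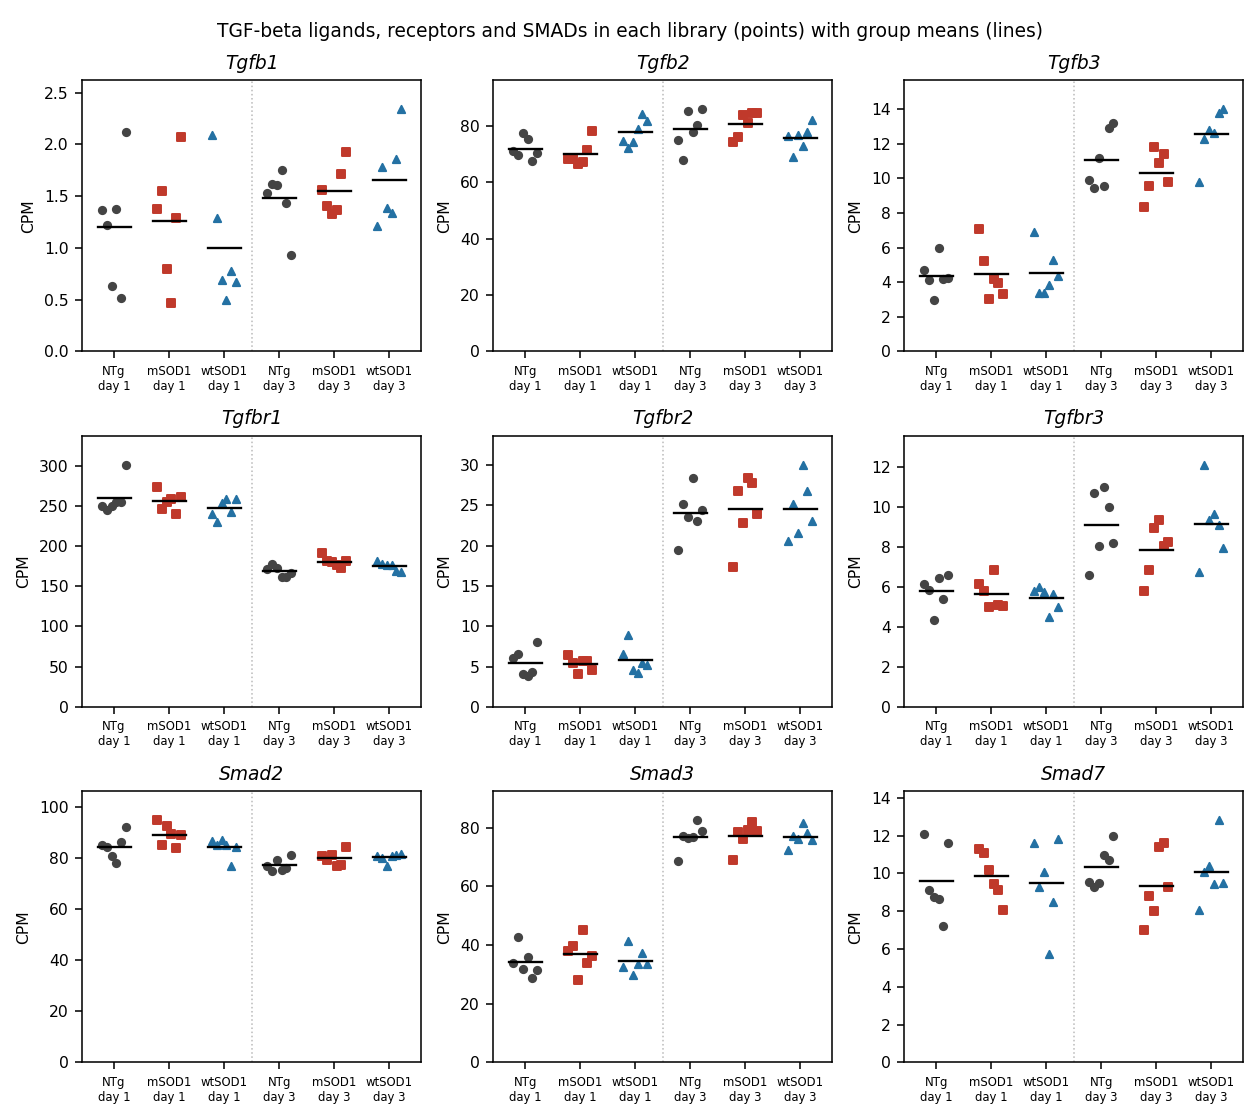
CPM of each of the 9 genes in all 36 libraries (points; circles NTg, squares mSOD1, triangles wtSOD1 medium) by group, with group means as lines and day 1 left of the dotted line; each vertical axis starts at 0. Tgfb3, Tgfbr2 and Smad3 are higher and Tgfbr1 lower in every library of day 3, while the media overlap within each day.

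Proximal promoters are shown for members that passed between days in all 3 media, so that those of genes that rose and fell can be compared. RefSeq windows (build GRCm38.p6) of 250 bases before to 50 after the start were available for 5 of the 9 genes, and those of Tgfbr2 (chr9:116175314-116175613, minus strand), Smad3 (chr9:63757945-63758244, minus strand) and Tgfbr1 (chr4:47352972-47353271, plus strand) are printed 5′ to 3′. Capitals mark each match to a searched motif: CAGAC, to which SMAD proteins bind, and GGGCGG, the GC box. The longer SMAD palindrome GTCTAGAC and the cAMP response element TGACGTCA were searched as well, all 4 on both strands, and no matches overlap.
Tgfbr2: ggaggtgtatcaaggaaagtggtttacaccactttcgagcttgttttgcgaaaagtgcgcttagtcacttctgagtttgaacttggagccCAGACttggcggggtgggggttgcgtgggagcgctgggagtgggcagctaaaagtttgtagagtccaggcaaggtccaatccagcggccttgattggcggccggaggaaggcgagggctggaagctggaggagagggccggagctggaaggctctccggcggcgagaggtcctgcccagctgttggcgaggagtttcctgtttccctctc
Smad3: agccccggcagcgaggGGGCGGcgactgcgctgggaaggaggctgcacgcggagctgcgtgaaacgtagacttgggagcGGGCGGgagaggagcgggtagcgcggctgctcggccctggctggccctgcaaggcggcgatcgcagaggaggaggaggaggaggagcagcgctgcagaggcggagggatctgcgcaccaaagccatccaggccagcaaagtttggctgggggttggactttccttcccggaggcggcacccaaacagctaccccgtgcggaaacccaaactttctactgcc
Tgfbr1: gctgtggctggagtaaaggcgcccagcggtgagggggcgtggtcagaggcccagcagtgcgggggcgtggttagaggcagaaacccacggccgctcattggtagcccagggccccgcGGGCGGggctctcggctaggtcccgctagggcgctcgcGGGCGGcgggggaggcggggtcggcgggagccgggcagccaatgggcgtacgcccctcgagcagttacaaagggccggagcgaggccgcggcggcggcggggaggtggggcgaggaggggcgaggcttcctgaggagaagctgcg

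Tgfbr2 held 1 CAGAC, 160 bases before its start, and no GC box. Smad3 held 2 GC boxes, at 234 and 171 bases before its start, and Tgfbr1 2, at 133 and 95 bases before its start, while neither held CAGAC. Neither GTCTAGAC nor TGACGTCA was in these 3 windows. Of 32851 mouse promoter windows of the same length, 49.6% held CAGAC, 35.7% GGGCGG, 1.79% TGACGTCA and 0.213% GTCTAGAC, so each match found is common. The windows were 59.0% (Tgfbr2), 67.7% (Smad3) and 74.7% (Tgfbr1) G or C, against a median of 52.7% over all windows. Smad3, which rose, and Tgfbr1, which fell, thus both held the GC box.

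Did the astrocyte genotype change the pathway genes in the motor neuron cultures? In the fit of 6 group means, no member passed in any of the 6 comparisons of media within a day. The background was low too: of all genes tested, 0.421% passed for mSOD1 against NTg on day 1 and 2.91% on day 3, 0.0263% and 0.0986% for wtSOD1 against NTg, and 1.01% and 3.39% for mSOD1 against wtSOD1. The day 3 backgrounds with mSOD1 moved up or down with the library left out. Of 443 genes for mSOD1 against NTg, 78 were left without mSOD1 replicate 3, while 1133 passed without NTg replicate 1, and for mSOD1 against wtSOD1 the 516 genes became 205 without wtSOD1 replicate 2 and 1346 without wtSOD1 replicate 1. At an unadjusted p below 0.05 by edgeR's test, Smad2 passed for mSOD1 against NTg on day 1, Tgfbr1 for the same on day 3, Tgfb2 for wtSOD1 against NTg on day 1, and Tgfb2 and Smad2 for mSOD1 against wtSOD1 on day 1, with none in the other 2 comparisons. At that cut 6.96% of all genes passed for mSOD1 against NTg on day 1 and 19.4% on day 3, 5.7% and 2.58% for wtSOD1 against NTg, and 11.1% and 18.6% for mSOD1 against wtSOD1, so 1 or 2 of 9 members at that cut is nothing particular to them. For mSOD1 against NTg medium on day 3 the intervals of the log2 difference (95%) bound what could have been missed. They ran from -0.23 to 0.31 for Tgfbr2, from -0.40 to 0.23 for Tgfb3, from -0.15 to 0.17 for Smad3, from -0.45 to 0.09 for Tgfbr3 and from -0.43 to 0.16 for Smad7. The abundant genes were bounded more tightly, from -0.07 to 0.15 for Tgfb2 and from -0.03 to 0.13 for Smad2, and Tgfb1 least, from -0.55 to 0.66.

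The experiment numbers were also used as a replicate block within each day, since same-numbered libraries deviated together, and in that fit 2 of the differences between media passed. Tgfbr1 on day 3 had 161, 170 and 178 CPM in the lowest, median and highest NTg libraries and 173, 181 and 191 CPM in the mSOD1 libraries. The groups overlapped, but the mSOD1 library was higher in 6 of 6 pairs. The log2 difference was 0.10 ± 0.04 (95% interval 0.01 to 0.18, adjusted p = 0.185, edgeR) without the replicate block and 0.10 ± 0.03 (0.0258) with it, where 18.1% of all genes passed. Tgfb2 on day 1 had 66.5, 68.2 and 78.2 CPM in the mSOD1 and 72.2, 76.8 and 84.1 CPM in the wtSOD1 libraries, overlapping groups with mSOD1 lower in 6 of 6 pairs. That difference was -0.15 ± 0.05 (interval -0.26 to -0.04, adjusted p = 0.256, edgeR) without and -0.15 ± 0.04 (0.0323) with the replicate block, where 3.79% of all genes passed. With a block over all libraries, which ties the days as well, neither passed (adjusted p = 0.11 for Tgfbr1 and 0.068 for Tgfb2, edgeR).

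Among the members, Tgfb2 had the smallest p in the interaction of day with mSOD1 minus wtSOD1, though the estimates of Tgfb1, Tgfbr3 and Tgfb3 were larger with wider errors. On day 3 it stood at 80.7 ± 4.55 CPM in mSOD1 and 75.8 ± 4.51 CPM in wtSOD1 medium, with mSOD1 higher in 5 of 6 pairs, the reverse of day 1. The interaction of day with mSOD1 minus wtSOD1 was 0.24 ± 0.08 (95% interval 0.09 to 0.40, adjusted p = 0.113, edgeR). With a replicate block within each day the adjusted p was 0.00549, and with a replicate block over all libraries 0.02 (10.8% and 3.94% of all genes passed). Without the block no member passed in any of the 3 interactions, where 0.23% (mSOD1 with NTg), 0.0197% (wtSOD1 with NTg) and 0.592% (mSOD1 with wtSOD1) of all genes did. The interactions of Tgfbr2 with medium lay between -0.05 and 0.09 on the log2 scale, beside a change with time of over 2.

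**Figure D3:**
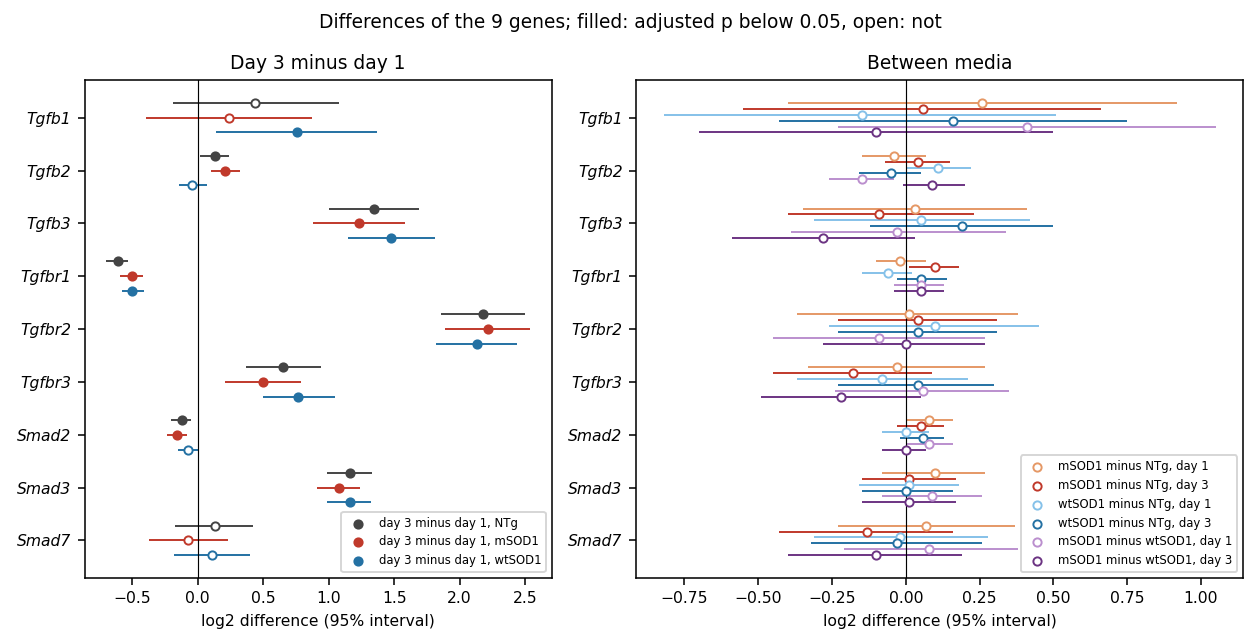
Log2 differences of the 9 genes between days (left) and between media within a day (right), with 95% intervals from edgeR's fit without a block; filled points passed at an adjusted p below 0.05. On the left Tgfbr2 lies above 2 and Tgfbr1 near -0.5 in all 3 media, and on the right no point is filled.

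Levels also differed between experiments within a day, which was tested after the values had been seen. On day 3 Tgfbr2 was lowest in experiment 1 and highest in experiment 4 in all 3 media, with means of 19.2 and 28.9 CPM over the 3 media (adjusted p = 0.00149, edgeR's F-test of the experiment terms). Tgfbr3 was likewise lowest in experiment 1 in all 3 media and highest in experiment 4 in 2 of 3, with 6.37 and 9.99 CPM (0.00713). Tgfb2 had 71.0 CPM in experiment 2 and 84.3 CPM in experiment 6 (0.00669). Marker sums differed between these experiments too. Experiment 1 had the highest motor neuron sum of the 6 experiments (1010 CPM, against 791 in experiment 4) and the lowest mesenchymal sum (169 CPM, against 209) and dividing-cell sum (798 CPM, against 1050), and its astrocyte sum was 343 CPM against 400. In experiment 2 the motor neuron sum was lowest (644 CPM) and the astrocyte sum highest (472 CPM). Their part in the members' levels was not tested. The other 6 members did not pass on day 3, where 24.5% of all genes did, and on day 1 Tgfb1, Tgfb3, Tgfbr1, Tgfbr2, Smad3 and Smad7 passed, with 31.6% of all genes. Among members, deviations from the group means correlated most for Tgfbr2 with Tgfbr3 (Pearson r = 0.56 over 36 libraries), Smad7 (0.55) and Smad3 (0.54), libraries that share experiments and depth.

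**Figure D4:**
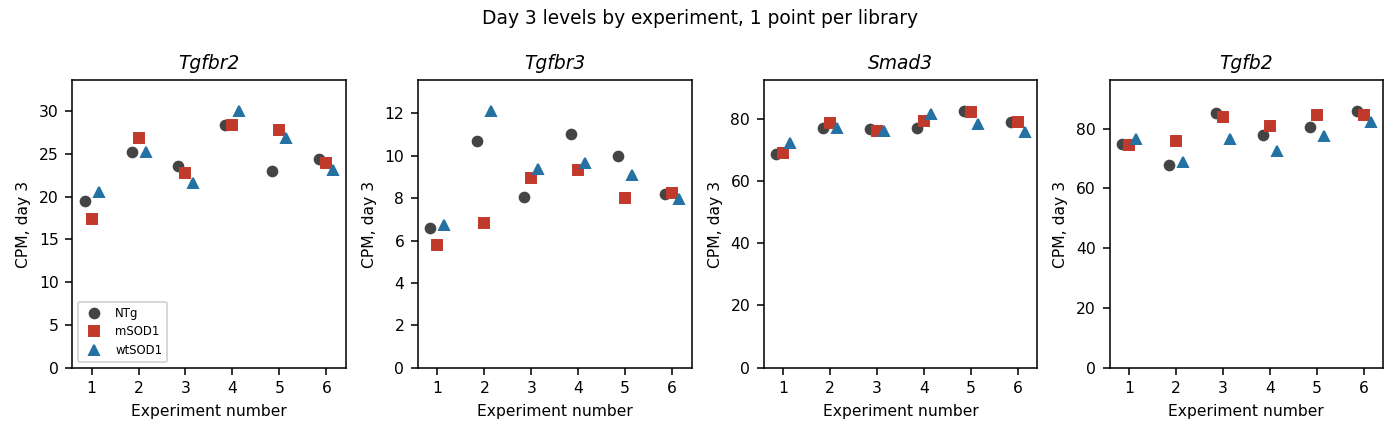
Day 3 CPM of Tgfbr2, Tgfbr3, Smad3 and Tgfb2 by experiment number, 1 point per library (circles NTg, squares mSOD1, triangles wtSOD1 medium). Experiment 1 is lowest for Tgfbr2, Tgfbr3 and Smad3 in all 3 media.

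The genes nearest to each member in deviations from the group means were also sought among all genes tested (Pearson r over 36 libraries, a description). Tgfbr2 lay nearest to Plod2, a collagen lysyl hydroxylase (r = 0.82), and Plau, the urokinase plasminogen activator (0.79). Smad3 lay nearest to Gpc4, a glypican, and Hmga2, a chromatin protein (both 0.82), and Tgfbr1 to Gpr17, an oligodendrocyte precursor receptor (0.84), and Mphosph8 (0.81), values that were 0.70 and 0.67 without the pair of libraries named above. Tgfbr3 lay nearest to Kdelc1 (0.78) and 1110020G09Rik (0.77), and Tgfb3 to Ddx55 and Thbs4, a thrombospondin (both 0.65). Tgfb2 was followed by AI593442 (0.69) and Fhl1 (0.65), and Tgfb1 by Prrg4 (0.73) and Tmem63a (0.70). Smad2 went with Zmynd11 (0.70) and Magi3 (0.69), and Smad7 with Cryab, a small heat shock protein (0.70), and Swap70 (0.69). Without the same pair of libraries these values were 0.64 and 0.61 for Smad2, and 0.62 and 0.71 for Smad7.

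The rest of the pathway was read from 7 lists of 71 genes, of which 67 were tested. Between days 33 rose and 17 fell in NTg, 34 and 15 in mSOD1, and 32 and 18 in wtSOD1 medium, with median log2 differences of 0.27, 0.26 and 0.35, where the median of all genes was 0.00, -0.01 and -0.01. Of all genes tested, 30.8% rose and 30.8% fell in NTg, 28.4% and 28.0% in mSOD1, and 31.1% and 30.7% in wtSOD1 medium. The same shares are the background of the counts of single lists between days given below. Genes that hold or release latent ligand rose in 7 of 9 tested in each medium. Thbs1, a thrombospondin that activates latent TGF-beta, went from 411 ± 64.0 to 1010 ± 103 CPM in NTg medium (log2 difference 1.29 ± 0.09, adjusted p = 3.54e-15, edgeR). The integrin subunits Itgav and Itgb8, which free the ligand from its latent complex, rose by 1.52 ± 0.11 and 0.77 ± 0.10 there, and Ltbp3, which tethers that complex to the matrix, by 1.5 ± 0.12. None of this list fell.

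Genes known to be induced by TGF-beta rose in 10 of 15 in NTg, 11 in mSOD1 and 10 in wtSOD1 medium, and 3 fell in each, with medians of 0.97, 0.79 and 0.73. Igfbp3, an IGF-binding protein, went from 47.6 ± 4.31 to 132 ± 9.47 CPM in NTg medium (1.49 ± 0.09, adjusted p = 4.53e-17, edgeR). The smooth muscle protein Tagln rose by 1.54 ± 0.11, the collagen chain Col1a2 by 2.12 ± 0.14 and the cell cycle inhibitor Cdkn2b by 1.56 ± 0.13. Among those that fell were Junb, a transcription factor (-1.53 ± 0.17), and Timp1, a metalloproteinase inhibitor (-0.33 ± 0.07). Col1a1 and Col1a2 are also in the mesenchymal list, which rose in 6 of 7 tested. Without the 3 pathway genes that list holds (Dcn is the third), 30, 31 and 29 of 64 rose.

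Of 6 tested genes known to be induced by BMP, Id1, Id2, Id3 and Hey1 fell in each medium, by 1.01 ± 0.13, 1.24 ± 0.10, 0.59 ± 0.09 and 0.25 ± 0.08 in NTg medium, and none rose. The ligand Bmp6 rose from 3.28 ± 0.916 to 20.9 ± 2.95 CPM there (2.59 ± 0.14, adjusted p = 2.07e-18, edgeR), Bmp4 by 2.23 ± 0.24, and the activin antagonist Fst (follistatin) by 1.34 ± 0.09. Smad6, the inhibitory SMAD of the BMP arm, went from 1.92 ± 0.431 to 8.82 ± 1.24 CPM (2.19 ± 0.17, 3.52e-14), beside a Smad7 that did not pass. Of the other SMADs, Smad1 fell by 0.32 ± 0.06 in NTg and 0.29 ± 0.06 in wtSOD1 medium and did not pass in mSOD1 medium (-0.07 ± 0.06). The activin receptors Acvr2b, Acvr1b and Acvr2a fell in all 3 media, by 0.91 ± 0.09, 0.41 ± 0.06 and 0.39 ± 0.05 in NTg medium. Eng, Bmpr1a and Acvr1c rose in each, Eng, a coreceptor for TGF-beta and BMP, by 1.66 ± 0.17. The nuclear corepressor Skil fell by 0.39 ± 0.05 in NTg medium, while the corepressors Tgif1 and Tgif2 rose by 0.56 ± 0.09 and 0.73 ± 0.09.

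**Figure D5:**
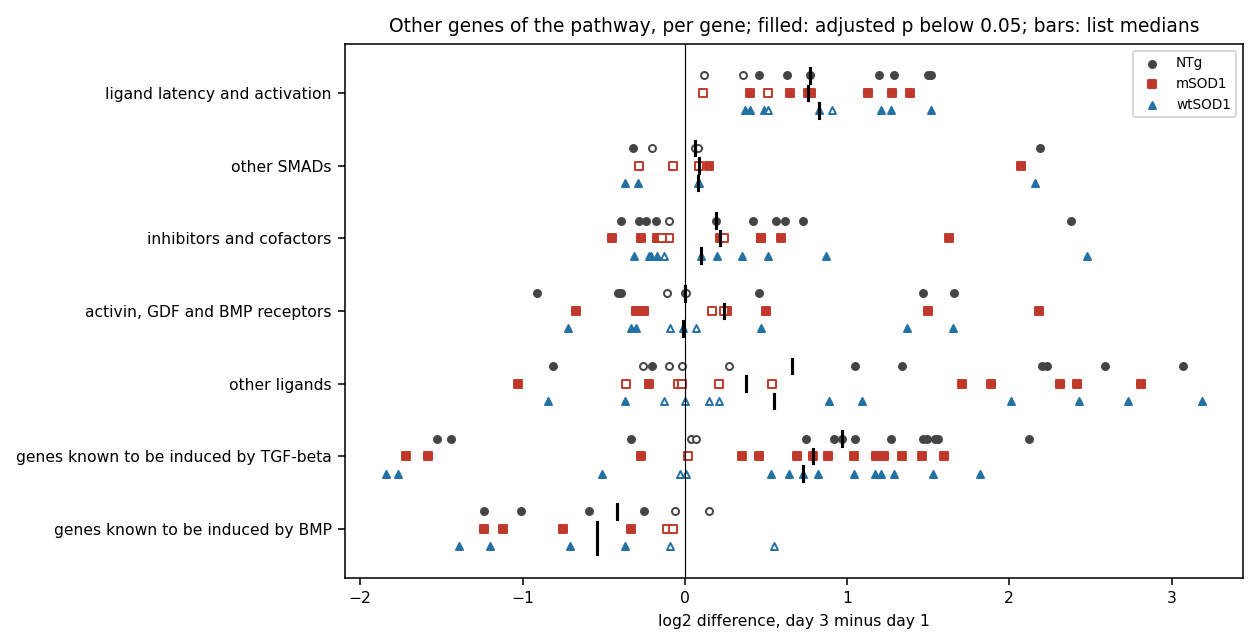
Log2 difference between days of each tested gene of 7 pathway lists (circles NTg, squares mSOD1, triangles wtSOD1 medium); filled points passed at an adjusted p below 0.05 and bars are list medians. Points of ligand latency and activation and most of those known to be induced by TGF-beta lie right of 0, and those known to be induced by BMP mostly left.

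Between media, the pathway genes that passed without a block did so on day 3 only, in the comparisons with mSOD1 medium. On that day 2 of 67 were higher and 2 lower than in NTg medium, where 2.91% of all genes passed. Against wtSOD1 medium 3 of 67 were higher and 0 lower, where 3.39% of all genes passed. Fst had 35.0, 40.3 and 47.3 CPM in the lowest, median and highest NTg libraries, 33.7, 37.1 and 43.4 CPM in the wtSOD1 libraries and 57.5, 60.4 and 75.4 CPM in the mSOD1 libraries. The mSOD1 libraries did not overlap the others. The log2 difference was 0.65 ± 0.08 against NTg (adjusted p = 5.30e-06, edgeR) and 0.76 ± 0.08 against wtSOD1 medium (1.43e-07). Acvr1, a type I receptor kinase for BMPs and activin, had 62.6 ± 3.95 CPM in mSOD1, 52.0 ± 3.6 CPM in NTg and 50.2 ± 2.83 CPM in wtSOD1 medium, again without overlap (0.27 ± 0.06, adjusted p = 0.0112, and 0.32 ± 0.06, 0.00100, edgeR). Timp1 was higher than in wtSOD1 medium by 0.32 ± 0.07 (0.00751), and Dcn and Col1a2, both in the mesenchymal list, were lower than in NTg medium, with differences of -0.83 ± 0.21 (0.0290) and -0.49 ± 0.13 (0.0305). The calls of Dcn and Col1a2 were lost without any 1 of NTg replicates 2, 4, 5 and 6 or mSOD1 replicates 1 and 3 of day 3. The summed mesenchymal level on day 3 was 178 ± 23.8 CPM in mSOD1, 236 ± 22.8 CPM in NTg and 201 ± 26.4 CPM in wtSOD1 medium. In the same order, dividing-cell markers summed to 854 ± 117, 1030 ± 124 and 1070 ± 143 CPM. Motor neuron markers summed to 953 ± 108, 828 ± 135 and 756 ± 134 CPM. The part of these marker levels in the differences between media was not tested. None of the 67 genes passed between media on day 1 or between wtSOD1 and NTg medium on day 3. Of all genes, 0.421% (mSOD1 against NTg), 0.0263% (wtSOD1 against NTg) and 1.01% (mSOD1 against wtSOD1) passed on day 1. For wtSOD1 against NTg on day 3 it was 0.0986%, so 0 of 67 is nothing particular to the pathway.

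With the replicate block within each day, more genes known to be induced by TGF-beta passed. On day 1, 4 of 15 were higher in mSOD1 than in NTg medium and none lower, where 1.24% of all genes passed. Ctgf, a matricellular growth factor, had 101, 123 and 192 CPM in the lowest, median and highest NTg libraries and 136, 164 and 209 CPM in the mSOD1 libraries. The groups overlapped, while the mSOD1 library was higher in 6 of 6 pairs (0.31 ± 0.04, adjusted p = 6.67e-06 with the block and 0.771 without, edgeR). The smooth muscle genes Acta2 (0.30 ± 0.05, 0.00156, 6 of 6) and Tagln (0.23 ± 0.06, 0.0478, 5 of 6) passed as well. With the block over all libraries 0 of the 15 passed in this comparison. Against wtSOD1 medium on day 1, 2 of 15 were higher with the block within each day, where 3.79% of all genes passed, Ctgf among them (0.27 ± 0.04, 3.92e-05), and 0 of 15 passed with the block over all libraries. For wtSOD1 against NTg medium on day 1 none of the 67 pathway genes passed, where 0.368% of all genes did.

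On day 3 that direction did not hold for Ctgf, which was lower in mSOD1 than in NTg medium by the blocked fit (-0.11 ± 0.04, adjusted p = 0.0486, edgeR, lower in 6 of 6 pairs). Of the 15 genes known to be induced by TGF-beta, 3 were higher and 3 lower in that comparison. The interaction of day with mSOD1 minus NTg in the blocked fit was -0.43 ± 0.06 for Ctgf (8.14e-06). In it 5 of the 15 passed, all negative (Ctgf, Acta2, Tagln, Col1a2 and Itga5), where 11% of all genes passed. With the block over all libraries 0 passed. In the interaction of day with mSOD1 minus wtSOD1, 1 of 15 passed (Ctgf, -0.19 ± 0.06, adjusted p = 0.029, edgeR), where 10.8% of all genes did. Acta2 had interactions of -0.43 ± 0.08 for mSOD1 minus NTg and -0.42 ± 0.08 for wtSOD1 minus NTg. Over the 67 pathway genes the blocked fit called 11 higher and 9 lower for mSOD1 against NTg medium on day 3, and 8 higher and 6 lower against wtSOD1 medium, where 18.1% and 15.6% of all genes passed. Smad1 was higher (0.17 and 0.19) and Smad6 lower (-0.47 in both) in mSOD1 medium in these comparisons. For wtSOD1 against NTg medium on day 3, 3 were lower (Ctgf, Acta2 and Col1a1), where 0.368% of all genes passed, and 1 of 67 passed in their interaction with day (Acta2), where 0.125% did. The comparisons with mSOD1 share its libraries and are not independent of each other.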

How the data were processed

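RNA of 36 motor neuron libraries was sequenced. Each file gives reads per gene as counts that the authors deposited without scaling, per the file headers. Beside them stands VSE, which the authors computed and whose values lie on a scale like log2. TopHat 1.3.3, mm9 and DESeq appear in the submitters' processing notes. For the counting program, its annotation and its strand setting, the sources used here give nothing. Genes without a symbol (7) held at most 0.000923% of a library's reads.

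The tests used R 4.3.3 and edgeR 4.0.16: TMM scaling, filterByExpr by group, robust quasi-likelihood F-tests in 1 fit of 6 group means (30 residual degrees of freedom), two-sided, with Benjamini-Hochberg adjustment over 15207 genes and a threshold of 0.05. There were 12 comparisons: 6 between media, 3 between days and 3 interactions. CPM used TMM-scaled totals, with a prior count of 2 for logarithms. Exon lengths came from GENCODE M21 (GRCm38), so lengths and counts rest on different annotations. The members and gene lists were chosen with earlier results of these data known, so no list was tested as a set. Named genes were all members, up to 4 genes of each list with the lowest adjusted p, genes behind counts of 5 or fewer, and the 2 nearest genes of each member. The replicate block within each day and a block over all libraries, DESeq2 1.42.0, limma 3.58.1 on the VSE values, RLE scaling, no filter, only the groups compared, other lengths and totals, and leaving out libraries were alternatives. The test among experiments, the counts without mesenchymal genes and the shares by longest transcript were added after the data were seen. Simulated counts were used to try edgeR without a block and with the block within each day, DESeq2, and limma on log-scaled CPM. They covered only mSOD1 minus NTg on day 1 and held no differences among experiments. The other comparisons and settings were not tried in this way. One gene of the lists is counted but not reported here.

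Replicate numbers are the labels' experiment numbers, taken here to mark a common experiment. As a check, deviations from group means correlated between same-numbered libraries with a mean r of 0.132 on day 1, where 11 of 18 pairs exceeded 0.1. On day 3 the mean r was 0.24 and 16 of 18 pairs exceeded 0.1. Differently numbered libraries gave -0.026 and -0.0479, and same-numbered libraries of different days 0.0373.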

Additional observations from a re-analysis of the deposited data

Results flagged for a closer look

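Among the 54 groups of 6 libraries (9 genes in 6 groups), 3 held a library far from the others, where chance flags about 1 in 20. NTg replicate 6 of day 1 had 301 CPM of Tgfbr1, and the other 5 libraries of its group had 245 to 255 CPM. It is the smallest library (4.39 M reads) and agreed least with its group. wtSOD1 replicate 5 of day 1 had 76.7 CPM of Smad2, below the other 5 at 84.4 to 87.0 CPM, and wtSOD1 replicate 3 of day 3 had 77.0 CPM of Smad2, below the other 5 at 80.1 to 81.4 CPM.

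For 2 pathway genes the difference between mSOD1 and wtSOD1 medium changed from day 1 to day 3 by the test of that interaction. For Fst it grew by 0.62 ± 0.12 on the log2 scale (adjusted p = 0.0109, edgeR), from 0.14 ± 0.09 on day 1 to 0.76 ± 0.08 on day 3. For Acvr1 it grew by 0.35 ± 0.08 (adjusted p = 0.0362, edgeR), from -0.03 ± 0.06 to 0.32 ± 0.06. The Acvr1 call was lost when the pair of libraries that agreed least with their groups was left out, and with only the groups compared in the fit.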

How the results depend on the processing

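None of the members' called differences reversed in the alternatives run. Between media, 430 of 432 alternative values other than leave-one-out kept their side of the threshold, as did 648 of 648 with 1 library left out. Between days these were 213 of 216 and 308 of 324, and for the interactions 214 of 216 and 648 of 648. The replicate block, which treats same-numbered libraries as paired, moved the count of members that passed from 0 to 1 within each day for mSOD1 minus NTg on day 3 (Tgfbr1) and mSOD1 minus wtSOD1 on day 1 (Tgfb2). Both replicate block fits moved it from 0 to 1 for the interaction of day with mSOD1 minus wtSOD1 (Tgfb2). The blocks changed no other call of a member. Between days the fit of only the groups compared gave Tgfb1 in wtSOD1 medium 0.77 ± 0.33 (adjusted p = 0.0517, edgeR), and without the pair of libraries that agreed least with their groups it gave 0.51 ± 0.29 (0.127), and Tgfb2 in NTg medium 0.13 ± 0.06 (0.0508). Over all genes the within-day block raised the calls on days 1 and 3 from 64 to 189 and from 443 to 2758 for mSOD1 minus NTg, from 4 to 56 and from 15 to 56 for wtSOD1 minus NTg, and from 153 to 577 and from 516 to 2366 for mSOD1 minus wtSOD1. In the interactions it raised them from 35 to 1680 (mSOD1 with NTg), 3 to 19 (wtSOD1 with NTg) and 90 to 1649 (mSOD1 with wtSOD1). With 1 library left out, the calls over all genes ranged from 78 to 1133 and from 205 to 1346 for mSOD1 minus NTg and minus wtSOD1 on day 3, and from 31 to 325 for the interaction of the latter pair. With 4 to 66 reads per library, Tgfb1 allows only coarse statements.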
